A study of Mus musculus with 6 samples.

Results

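The genes described here build sterols and fatty acids under the control of SREBP transcription factors. They comprise 37 genes, chosen by name from the textbook pathway with earlier results of these data known. Of the 37, 35 had a named probe among the 20289 genes measured. Hmgcs1 and Fdft1 were not analysed here. RNA from mouse embryonic fibroblasts of C57BL6 embryos at day 13.5 was measured on single-colour Illumina arrays. The 3 control arrays carried RNA of fibroblasts in which a short hairpin RNA (shRNA) targeted GFP, and the 3 others RNA of fibroblasts with an shRNA against Ube2o, which encodes a ubiquitin-conjugating enzyme. The submitters' aim was to find genes and pathways that respond to UBE2O loss. Each target is represented by 1 shRNA in the labels, and both groups carry an shRNA. The submitters call the fibroblasts independent without saying from which embryos or cultures they came, so a p-value speaks for the spread of these arrays alone, part of which may be technical.

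SREBP proteins are made as precursors in the membrane of the endoplasmic reticulum. When sterols run low, the escort protein SCAP carries them to the Golgi, where proteases free the active factor, and INSIG proteins hold SCAP back when sterols are plentiful. The free factor raises transcription of the enzymes of sterol and fatty acid synthesis, with SREBP-2 acting mainly on sterol genes and SREBP-1 mainly on fatty acid genes. SREBP sites commonly lie close to binding sites of NF-Y, the factor that binds CCAAT boxes.

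Ube2o read 10.86, 10.82 and 10.82 in log2 intensity on the control arrays and 9.48, 9.46 and 9.21 with Ube2o shRNA, without overlap, and was 2.74-fold lower (log2 change -1.45, SE 0.12). The median deposited signal of an array lay between 153 and 174, and by a background level taken from the dim probes, 43.1% to 44.9% of the 45281 probes exceeded it per array. All 12 fibroblast markers, among them Col1a1, Thy1 and Vim, lay above background on every array. Of the markers of other cells, 0 of 7 endothelial, 0 of 7 epithelial and 0 of 7 hepatocyte genes did so, against 2 of 6 neural, 1 of 6 skeletal muscle, 4 of 10 macrophage and leukocyte and 2 of 9 adipocyte genes. The muscle gene, Des, which encodes desmin, fell (change -0.65, SE 0.11, adjusted p = 0.00127 in limma), and the 2 neural genes did not pass. Of the 12 fibroblast markers 1 rose and 1 fell, or 8.33% each, against 5.89% and 7.14% of all genes above background on every array. Changes of the 12 markers ran from -0.76 to 0.46. All levels below are normalized log2 intensities of a gene's brightest probe, all changes are differences of log2 means (Ube2o shRNA less the GFP control), and a change passed where its adjusted p was under 0.05 in limma over all probes. The number of arrays, 3 per group, limits the precision of every value.

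Of the 35 measured genes, 4 rose with Ube2o shRNA, 2 fell and 29 did not pass. The rises were those of Msmo1, a sterol demethylating enzyme, of the stearoyl-CoA desaturases Scd1 and Scd2, and of Fads1, the delta-5 desaturase of polyunsaturated fatty acids. The falls were those of Hsd17b7 and Ebp, which also act between lanosterol and cholesterol. The largest of the 6 changes was that of Scd2, at 1.50-fold. Among all genes 2.92% rose and 3.96% fell. Among the 9330 genes above background on all 6 arrays 5.89% rose and 7.14% fell, against 4 and 2 of the 32 genes of the pathway that met the same condition, or 12.5% and 6.25%. The share that fell was thus close to the background, and the share that rose was above it, on 4 genes, 3 of them on chromosome 19. Of the 346 genes above background on that chromosome, 24.0% rose. Of the 29 measured genes of the pathway on other chromosomes, 27 of them above background on all 6 arrays, 1 rose, or 3.45%. Of all genes 2.92% rose, and of all genes above background 5.89%.

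**Figure D1:**
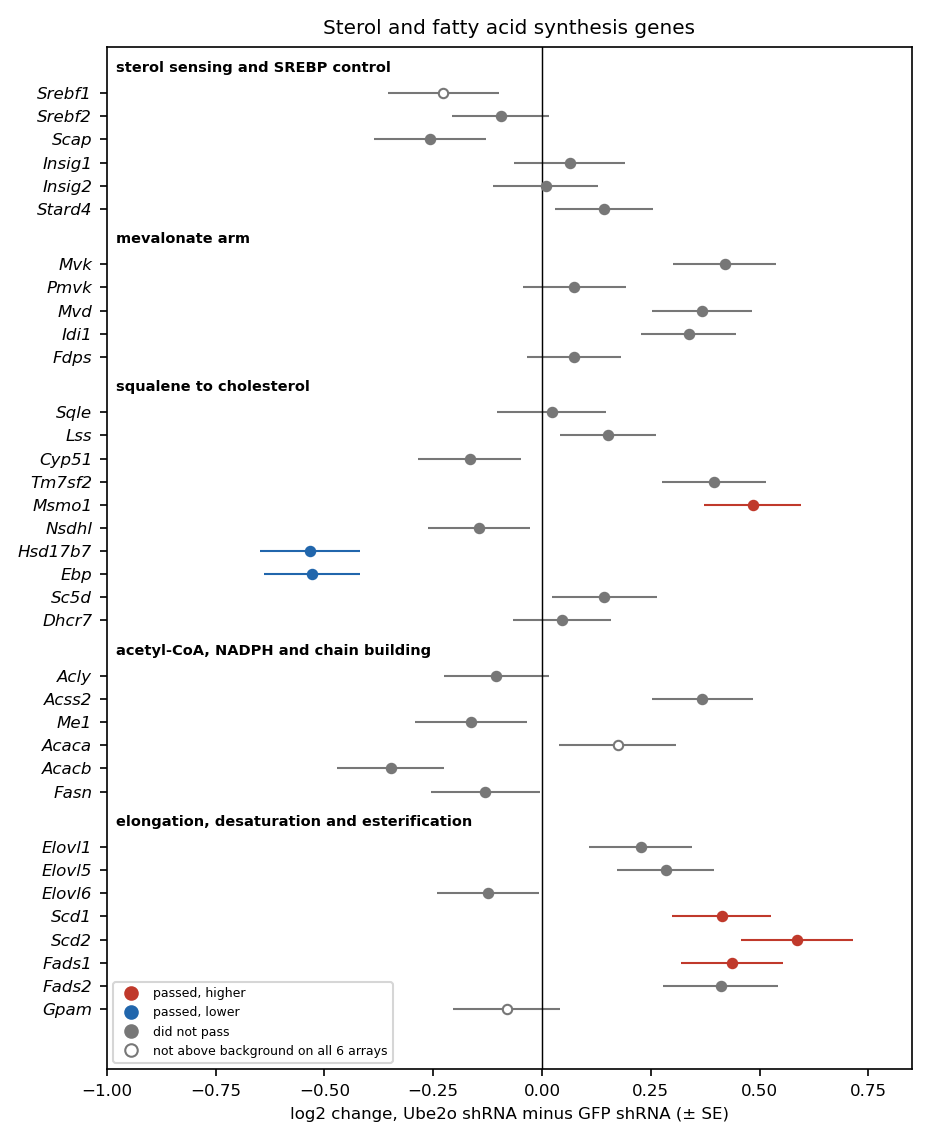
Log2 change (x axis, Ube2o shRNA minus GFP shRNA, bars ± SE from limma, 3 arrays per group) of each measured gene, grouped by role. The 4 genes that rose lie to the right in red, the 2 that fell to the left in blue, and open circles mark Srebf1, Acaca and Gpam, which were not above background on all arrays.

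Beyond the calls, small differences in one direction were frequent. For 14 of the 35 genes all 3 Ube2o shRNA arrays lay above all 3 controls, and for 3 they lay below. All 17 were above background on every array. Among all genes above background on every array, 21.3% were higher and 20.1% lower in this sense, against 43.8% and 9.38% of the 32 genes of the pathway. The median change was 0.073 over these 32 genes and 0.010 over the 9330. With arrays scaled by their median in place of quantile normalization, the numbers were 10 higher and 4 lower of 32, against 10.4% and 22.1% of all such genes, and the medians were -0.021 and -0.066. With the chromosome median of genes above background subtracted from each gene the numbers were 9 higher and 2 lower, or 28.1% and 6.25%, against 18.6% and 20.3% of all such genes. The genes were not tested as a set, since they were chosen with results of these arrays known.

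**Figure D2:**
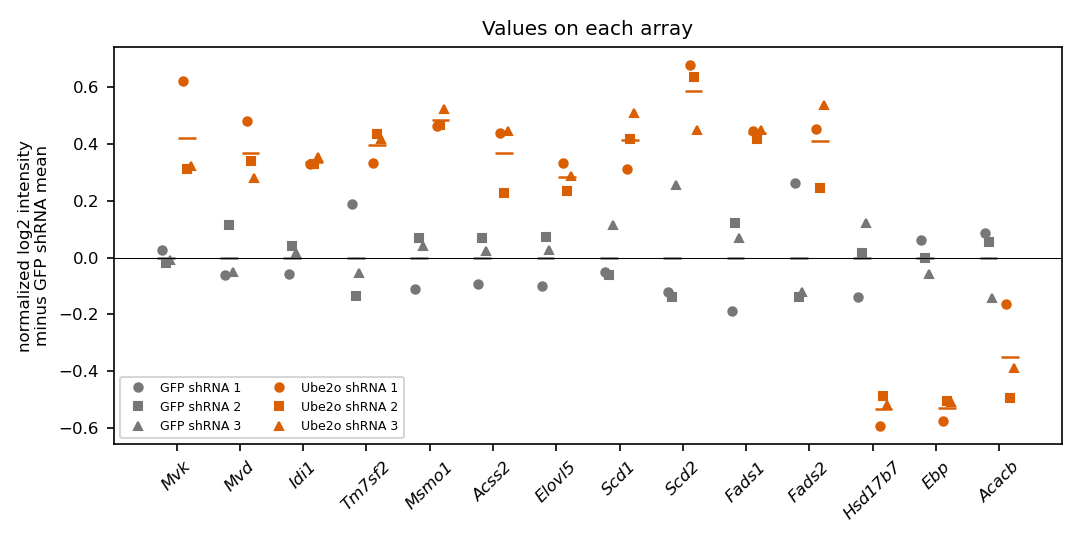
Normalized log2 intensity on each array minus the mean of the GFP shRNA arrays (y axis) for the 13 genes that passed in at least 1 processing, and for Acacb. Grey symbols are GFP shRNA and orange symbols Ube2o shRNA arrays, symbol shape gives the replicate and bars are group means, and the groups overlap only for Fads2.

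By their brightest probes, 0 of the 6 genes that sense sterol and control SREBP passed in limma, and at an unadjusted p under 0.05 the count was 0 (among all genes 9.69% were higher and 10.2% lower at that threshold). The brightest probe of Srebf2, which encodes SREBP-2, read 9.42, 9.29 and 9.41 on the control arrays and 9.29, 9.35 and 9.19 with Ube2o shRNA. These overlap, and the change was -0.095 (95% interval -0.33 to 0.14). A dimmer probe of Srebf2 read 8.65, 8.62 and 8.57 in controls and 9.07, 9.01 and 8.97 with Ube2o shRNA. That probe passed (change 0.40, SE 0.11, adjusted p = 0.0415 in limma), so the 2 probes of the gene disagree, and the direction of Srebf2 rests on the probe. Srebf1, which encodes SREBP-1, exceeded background on all 3 controls but on 1 array with Ube2o shRNA, with a change of -0.23 (SE 0.13, adjusted p = 0.412). Its values were 6.74, 6.78 and 6.67 against 6.24, 6.57 and 6.71, which overlap.

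The escort gene Scap read 9.29, 8.97 and 8.96 in controls and 8.70, 8.73 and 9.01 with Ube2o shRNA. The highest Ube2o shRNA value lay above 2 of the controls, and the change was -0.26 (95% interval -0.53 to 0.014). Insig1, whose transcription SREBP itself raises, read 9.97, 10.16 and 10.39 against 10.12, 10.36 and 10.24. Its change was 0.064 (95% interval -0.20 to 0.33), while those of its 2 other probes above background were 0.27 and 0.21, neither of which passed. On both of these dimmer probes of Insig1 every Ube2o shRNA array lay above every control, so its probes differ. Insig2 read 10.01, 9.67 and 9.88 against 9.79, 9.95 and 9.85 and had a change of 0.0081 (95% interval -0.24 to 0.26). Stard4, a cytosolic sterol carrier gene, had a change of 0.14 (SE 0.11, adjusted p = 0.605), with its 3 Ube2o shRNA arrays just above the controls. Of 10 measured genes of SREBP cleavage and INSIG turnover, such as the protease genes Mbtps1 and Mbtps2, 0 passed in limma (1 was higher and 0 lower at an unadjusted p under 0.05), with changes of 0.21 and 0.15 for these 2 and a median of 0.073 over the 10.

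All 5 measured genes of the mevalonate arm, which makes isoprenoid units from acetyl-CoA, had changes above 0. In limma 0 passed, and at an unadjusted p under 0.05 3 were higher and 0 lower, against 9.69% and 10.2% of all genes. Mvk, mevalonate kinase, came nearest. It read 9.13, 9.09 and 9.10 in controls and 9.73, 9.42 and 9.43 with Ube2o shRNA, so that its lowest Ube2o shRNA value stood clear of the controls. The change was 0.42 (SE 0.12, 1.34-fold, adjusted p = 0.0502 in limma). Mvd, the decarboxylase that makes isopentenyl diphosphate, read 9.22, 9.39 and 9.23 against 9.76, 9.62 and 9.56 (change 0.37, SE 0.11, adjusted p = 0.0815). Idi1, the isomerase of the next step, read 9.85, 9.95 and 9.92 against 10.24, 10.23 and 10.26 (change 0.34, SE 0.11, adjusted p = 0.0929).

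In these 3 genes the groups did not overlap. With no background correction, in the series matrix values, with an intensity trend in the moderation, and with the filter on dim probes, Mvk, Mvd and Idi1 all passed as higher. Their adjusted p-values in those 4 settings lay between 0.00451 and 0.0259. None of the 3 passed with median scaling (0.173, 0.307 and 0.409), with the offset of 16 (0.211 to 0.254) or with any 1 array left out (0.0584 to 0.264). Pmvk, phosphomevalonate kinase, and Fdps, farnesyl diphosphate synthase, had changes of 0.074 and 0.072. Fdps read 12.91, 12.94 and 12.92 against 12.99, 13.02 and 12.97, groups that lie apart but by less than 0.1. For both genes the direction turned with median scaling, to -0.0093 and -0.037.

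Genes between squalene and cholesterol moved both ways. Sqle, squalene epoxidase, read 11.84, 12.24 and 12.14 in controls and 12.11, 12.01 and 12.17 with Ube2o shRNA, with a change of 0.023 (95% interval -0.24 to 0.29). Lss, lanosterol synthase, had a change of 0.15 and Cyp51, lanosterol demethylase, one of -0.17, and neither passed. Tm7sf2, a sterol reductase gene, read 7.65, 7.32 and 7.40 against 7.79, 7.89 and 7.87 (change 0.40, SE 0.12, adjusted p = 0.0673). Its groups did not overlap.

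Msmo1 encodes the oxidase that begins removal of the methyl groups at carbon 4 of the sterol ring. It read 12.60, 12.78 and 12.75 in controls and 13.17, 13.17 and 13.23 with Ube2o shRNA. All 3 Ube2o shRNA arrays stood above every control, and the gene rose 1.40-fold (change 0.48, SE 0.11, adjusted p = 0.0146 in limma). Without the array of GFP shRNA replicate 1 the adjusted p was 0.0694, and without Ube2o shRNA replicate 3 it was 0.0589. It was 0.114 with median scaling.

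Nsdhl and Hsd17b7 encode the dehydrogenase and the ketone reductase that complete the same demethylation. The brightest probe of Nsdhl did not pass (change -0.14, SE 0.12, adjusted p = 0.618), while its dimmest passed as lower, with 7.84, 8.05 and 7.93 in controls against 7.39, 7.54 and 7.47 (change -0.47, SE 0.11, adjusted p = 0.0194 in limma). The other 2 probes had changes of -0.16 and -0.079. Hsd17b7 fell by 0.53 (SE 0.11, 1.45-fold lower, adjusted p = 0.00939 in limma). Its brightest probe read 11.17, 11.33 and 11.44 in controls and 10.72, 10.83 and 10.79 with Ube2o shRNA, all lower. A second probe of Hsd17b7, above background on 2 of 3 control arrays, read 6.64, 6.55 and 6.66 against 6.99, 7.07 and 6.88 and did not pass (change 0.37, SE 0.11, adjusted p = 0.0751). The probes thus point opposite ways, and with probes averaged the gene had a change of -0.084 (adjusted p = 0.737). Without GFP shRNA replicate 3 the adjusted p of the brightest probe was 0.0547.

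Ebp encodes the isomerase that shifts the double bond of the sterol ring. It read 10.57, 10.51 and 10.45 in controls and 9.94, 10.01 and 10.00 with Ube2o shRNA, with small spread within each group, and fell by 0.53 (SE 0.11, 1.44-fold lower, adjusted p = 0.00711 in limma). Ebp passed whichever array was left out, with adjusted p-values between 0.0186 and 0.0366. Ebp and Nsdhl lie on the X chromosome, where the median change of 296 genes above background was -0.19. Once that median was subtracted, the change of Ebp was -0.34 (adjusted p = 0.0955), and with the median of all genes of the chromosome it passed (adjusted p = 0.0125). Sc5d and Dhcr7, which act last, did not pass (changes of 0.14 and 0.046).

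The start regions of these genes are shown since SREBP and NF-Y act there and since the genes moved in opposite directions. For 30 of the 37 genes the RefSeq table of GRCm38.p6 held a window of 250 bases before to 50 after the start, 41 windows in all. Below are those of the genes that passed and had a window, and that of Mvk, added after its values were seen. They read 5′ to 3′ on the strand of the gene, with matches to CCAAT, the NF-Y box, on either strand (ATTGG on the other), and to the E-box CACGTG in capitals. The window of Msmo1 is chr8:64733529-64733828 on the minus strand and that of Hsd17b7 chr1:169969156-169969455 on the minus strand. That of Ebp is chrX:8193463-8193762 on the minus strand and that of Mvk chr5:114444019-114444318 on the plus strand.
Msmo1: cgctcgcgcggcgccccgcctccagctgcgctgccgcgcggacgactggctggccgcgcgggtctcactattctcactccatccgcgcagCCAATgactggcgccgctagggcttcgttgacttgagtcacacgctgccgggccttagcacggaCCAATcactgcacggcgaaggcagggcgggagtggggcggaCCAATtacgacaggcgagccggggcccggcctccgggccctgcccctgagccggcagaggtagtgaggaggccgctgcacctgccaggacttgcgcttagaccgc
Hsd17b7: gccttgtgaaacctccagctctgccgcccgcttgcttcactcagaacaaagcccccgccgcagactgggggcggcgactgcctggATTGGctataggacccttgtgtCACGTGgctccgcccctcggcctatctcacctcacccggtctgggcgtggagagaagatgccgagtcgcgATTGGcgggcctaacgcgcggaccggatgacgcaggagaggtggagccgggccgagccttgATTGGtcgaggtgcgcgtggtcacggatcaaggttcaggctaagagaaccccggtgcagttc
Ebp: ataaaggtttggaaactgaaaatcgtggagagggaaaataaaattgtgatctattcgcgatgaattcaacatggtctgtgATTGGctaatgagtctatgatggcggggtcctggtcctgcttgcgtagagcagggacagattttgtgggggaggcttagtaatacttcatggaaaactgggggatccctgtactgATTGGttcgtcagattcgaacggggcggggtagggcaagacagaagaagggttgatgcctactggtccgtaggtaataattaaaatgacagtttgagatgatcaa
Mvk: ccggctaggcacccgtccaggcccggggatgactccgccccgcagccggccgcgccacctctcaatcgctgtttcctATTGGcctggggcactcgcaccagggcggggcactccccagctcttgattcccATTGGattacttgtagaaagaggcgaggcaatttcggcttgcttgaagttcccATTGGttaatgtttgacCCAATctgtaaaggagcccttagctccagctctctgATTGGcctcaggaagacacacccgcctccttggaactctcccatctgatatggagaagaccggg

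Msmo1 held 3 CCAAT boxes, Hsd17b7 held 3 and an E-box, Ebp 2 and Mvk 5. Among genes that passed, Msmo1, which rose, and Hsd17b7 and Ebp, which fell, thus held CCAAT boxes. Scd1, Scd2 and Fads1, which also rose, had no window, and Mvk did not pass. Of the 41 windows, 27 held CCAAT (65.9%), against 37.4% of 32851 windows in the table and 38.2% of the 21263 of protein-coding genes. An E-box stood in 7 windows (17.1%, against 7.15%). The core of the sterol regulatory element, searched as TCACNCCAC with N for any base, stood in 1 window, that of Hmgcs1 (2.44%, against 1.24%). Each motif was searched on its own on both strands, so matches of different motifs may share letters. A match is a stretch of letters and not a measured site.

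Of the 6 genes that supply acetyl-CoA and NADPH and build the fatty acid chain, 0 passed in limma, and at an unadjusted p under 0.05 1 was higher and 1 lower, against 9.69% and 10.2% of all genes. Acly, ATP citrate lyase, read 12.89, 13.18 and 13.19 against 12.89, 13.06 and 13.00, a change of -0.11 (95% interval -0.36 to 0.15). Acss2, which makes acetyl-CoA from acetate, read 9.40, 9.56 and 9.52 against 9.93, 9.72 and 9.94, with no overlap (change 0.37, SE 0.12, adjusted p = 0.0824). Its dimmer probe, above background on 2 of 6 arrays, had a change of -0.090. Me1, malic enzyme, had a change of -0.16.

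Fasn, fatty acid synthase, read 6.80, 7.15 and 6.78 against 6.87, 6.74 and 6.73, which overlap, with a change of -0.13 (95% interval -0.39 to 0.13). Acacb, the mitochondrial acetyl-CoA carboxylase, read 7.37, 7.34 and 7.14 against 7.12, 6.79 and 6.89. All Ube2o shRNA values lay below the controls, by little in 1 case (change -0.35, SE 0.12, adjusted p = 0.133). Acaca, the cytosolic carboxylase, was not above background on any array by its 1 probe, so no fold is given.

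Chain desaturation held 3 of the 4 rises. Of the 8 genes of elongation, desaturation and esterification these 3 rose (37.5%) and 0 fell, against 2.92% and 3.96% of all genes. All 3 lie on chromosome 19, where 24.0% of the genes above background rose. Scd1 and Scd2, which put the first double bond into saturated fatty acids, both rose. Scd2 read 8.88, 8.87 and 9.26 in controls and 9.68, 9.64 and 9.45 with Ube2o shRNA. GFP shRNA replicate 3 stood nearest to the Ube2o shRNA arrays, and the gene rose 1.50-fold (change 0.59, SE 0.13, adjusted p = 0.0106 in limma). Without GFP shRNA replicate 1, GFP shRNA replicate 2 or Ube2o shRNA replicate 1 the adjusted p was 0.0749, 0.0567 or 0.0563.

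Scd1 read 11.42, 11.41 and 11.59 in controls and 11.78, 11.89 and 11.98 with Ube2o shRNA, without overlap, and rose 1.33-fold (change 0.41, SE 0.11, adjusted p = 0.0457 in limma). It did not pass when any 1 of the 6 arrays was left out (adjusted p from 0.0559 to 0.174), nor with the replicate number as a block (adjusted p = 0.0537). Probe sequences were not used here, so hybridisation of a probe to more than one Scd gene was not checked.

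Fads1 read 13.28, 13.59 and 13.54 in controls and 13.91, 13.88 and 13.92 with Ube2o shRNA. The Ube2o shRNA values lay close together above the controls, and the gene rose 1.35-fold (change 0.44, SE 0.12, adjusted p = 0.0381 in limma). Its dimmer probe, at 7.74, 7.50 and 7.15 against 7.31, 7.18 and 7.08, had a change of -0.27 (adjusted p = 0.354). With probes averaged the change of Fads1 was 0.082. The brightest probe passed without GFP shRNA replicate 2 and in none of the other left-out fits (adjusted p from 0.0671 to 0.156). Fads2, the delta-6 desaturase, read 8.94, 8.54 and 8.56 against 9.13, 8.92 and 9.22. Ube2o shRNA replicate 2 lay just below the highest control, and the change was 0.41 (SE 0.13, adjusted p = 0.0907). Without GFP shRNA replicate 1 it was 0.54 (adjusted p = 0.0394).

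Of the elongases, Elovl5 read 12.12, 12.29 and 12.24 against 12.55, 12.45 and 12.50 and did not overlap (change 0.28, SE 0.11, adjusted p = 0.186). Elovl5 elongates polyunsaturated chains, Elovl1 very long chains and Elovl6 saturated chains such as palmitate. Elovl1 had 4 probes, all above background. The brightest did not pass (change 0.23, adjusted p = 0.371), the next had changes of 0.21 and 0.37, and the dimmest passed, with 8.28, 8.18 and 8.13 against 8.74, 8.86 and 9.10 (change 0.71, SE 0.12, adjusted p = 0.00149 in limma). All 4 probes of Elovl1 were higher on average, and their sizes differ. The 2 probes of Elovl6 had changes of -0.12 and 0.27, and neither passed. Gpam, which adds the first acyl chain to glycerol 3-phosphate, lay above background on 5 of 6 arrays and had a change of -0.081 (adjusted p = 0.826).

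Scd1, Scd2 and Fads1 lie on chromosome 19, together with Tm7sf2, Fads2 and Gpam. There the median change of 346 genes above background was 0.23, and 24.0% of them rose. Of the 6 genes of the pathway on chromosome 19, 3 rose, 2 others had changes of 0.40 and 0.41, and Gpam had -0.081. Within the 346 genes, 5.20% had a larger change than Scd2, 21.4% than Fads1, 24.6% than Scd1, 24.9% than Fads2 and 27.2% than Tm7sf2. Of the 29 genes elsewhere, 27 of them above background on all 6 arrays, 1 rose and 2 fell, or 3.45% and 6.90%. Of all genes 2.92% rose and 3.96% fell, and of all genes above background 5.89% and 7.14%. The median change of the 29 was 0.046.

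With the median of chromosome 19 subtracted, the changes were 0.36 for Scd2 (adjusted p = 0.138), 0.21 for Fads1 (0.390), 0.18 for Scd1 (0.447), 0.18 for Fads2 and 0.17 for Tm7sf2. None of these passed. That median was taken over genes above background. Taken over all genes of the chromosome it was 0.085, and Scd2 then passed (adjusted p = 0.0321). In both cases Mvk passed as higher (adjusted p = 0.0158 and 0.0305), on chromosome 5, where the median change was -0.099, and Msmo1 and Hsd17b7 passed as before. The median was 0.29 on chromosome 12 and 0.16 on chromosome 4. It was -0.11 on chromosome 15, which carries Srebf2 and Sqle, and -0.082 on chromosome 11, which carries Srebf1, Acly, Acaca and Fasn. On the chromosomes not named here or above it lay between -0.025 and 0.035. The part of the chromosome in the changes of its genes was not tested.

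**Figure D3:**
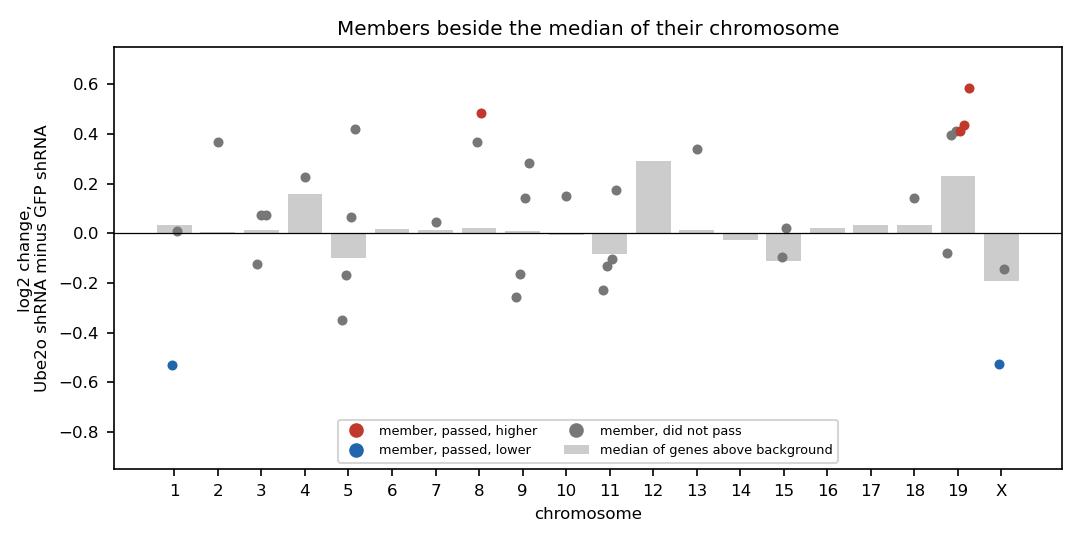
Log2 change of each measured gene of the pathway (points) above the median change of all genes of its chromosome that lie above background on all 6 arrays (grey bars). On chromosome 19 the bar is at 0.23 and 5 of 6 points lie between 0.40 and 0.59, while Ebp and Nsdhl lie on the X chromosome, whose bar is at -0.19.

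Neighbours of the desaturase genes were not uniform. In the Scd cluster, Scd4 lies between Scd2 and Scd1 and exceeded background on none of the controls and on 2 arrays with Ube2o shRNA (change 0.37, adjusted p = 0.0900), and Scd3 lay above background on none. In the Fads cluster, Fads3, which adjoins Fads2, read 10.35, 10.67 and 10.63 against 10.55, 10.36 and 10.52 (change -0.072). Fen1, a flap endonuclease gene beside Fads1, rose (10.96, 10.97 and 11.07 against 11.62, 11.63 and 11.70, change 0.65, SE 0.11, adjusted p = 0.00133 in limma). Rab3il1, on the other side of Fads3, rose too (change 0.55, SE 0.15, adjusted p = 0.0363). Fth1, further out, had a change of 0.095. In the Fads cluster, genes that rose thus stood beside genes that did not pass. In the Scd cluster no measured neighbour of Scd1 and Scd2 lay above background on every array, so none could be compared with them.

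Of 82 measured genes of related lipid lists, 55 of them above background on all 6 arrays, 2 rose and 6 fell, or 2.44% and 7.32%. Of all genes 2.92% rose and 3.96% fell, and of all genes above background 5.89% and 7.14%. In the oxysterol and LXR branch 1 of 10 fell. This was Cyp7b1, the oxysterol 7-hydroxylase, which read 10.87, 10.97 and 10.89 against 10.02, 10.01 and 10.01 (change -0.89, SE 0.11, adjusted p = 4.76e-05 in limma). Nr1h3, which encodes the sterol receptor LXR alpha, had a change of -0.32 (adjusted p = 0.166). Among 8 genes of isoprenoid side branches, Coq2, which prenylates the precursor of ubiquinone, fell by 0.65 (SE 0.11, adjusted p = 0.00161).

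Of 10 genes of sterol trafficking and esterification, Npc2, which binds cholesterol in the lysosome, rose by 0.45 (adjusted p = 0.0276), and Lipa, the lysosomal acid lipase, fell by 0.64 (adjusted p = 0.00421). Npc2 lies on chromosome 12 and Lipa on chromosome 19, against the median there. Of 20 other acyl chain genes, Hacd1, a dehydratase of chain elongation, rose by 0.47 (adjusted p = 0.0149). Mid1ip1, which promotes polymerisation of acetyl-CoA carboxylase, fell by 0.48 (adjusted p = 0.0205).

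Of 16 genes of glycerolipid assembly, Dgat2, which makes triglyceride, fell by 0.75 (SE 0.13, adjusted p = 0.00152), reading 8.05, 8.22 and 7.95 against 7.21, 7.17 and 7.57. Of 8 genes of other lipid factors, Cebpb, a transcription factor of early adipogenesis, fell by 0.47 (adjusted p = 0.0253), while Pparg had a change of 0.077.

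Adipocyte markers were followed because adipocytes express much of the pathway. Of 9 measured, 2 lay above background on all 6 arrays and 4 on none, among them Plin1, Cidec and Lep, and Adipoq and Fabp4 lay above it on 1 array each. Their summed linear intensity was 11196 to 11833 on control arrays and 5812 to 6701 with Ube2o shRNA. Lpl, lipoprotein lipase, which fell (13.32, 13.40 and 13.30 against 12.23, 12.46 and 12.37, change -0.99, SE 0.11, adjusted p = 2.35e-05), makes up most of that sum. Among 10 macrophage and leukocyte markers 3 fell (30%) and 0 rose, against 3.96% and 2.92% of all genes, and 5 were above background on no array. Changes of the 10 markers ran from -2.17 to 0.028. Their summed intensity was 2194 to 2494 in controls and 1490 to 1511 with Ube2o shRNA. The part of these and other marked cells in the changes above was not tested, and in bulk RNA fewer cells of a type cannot be told from less RNA per cell.

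The number of calls in the pathway moved with the processing. With no background correction, in the series matrix values and with an intensity trend, 11 genes rose and 2 fell. The 7 added rises were those of Mvk, Mvd, Idi1, Tm7sf2, Acss2, Elovl5 and Fads2. Calls grew among all 45281 probes too, from 1026 rises to 2025, 2011 and 1660, and from 1220 falls to 1944, 1930 and 1693. With a background offset of 16, 0 of the 35 passed in either direction by limma. Calls were fewer among all 45281 probes too, at 584 against 2246 as reported. At an unadjusted p under 0.05 10 of the 35 were higher and 3 lower, against 8.05% and 8.73% of all genes in that setting. With median scaling 1 rose, Scd2, and the same 2 fell, while among all 45281 probes 567 rose and 1544 fell. When 1 array was left out, 1 or 2 rose and 1 or 2 fell. Calls among all probes then dropped from 2246 to between 1447 and 1686.

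**Figure D4:**
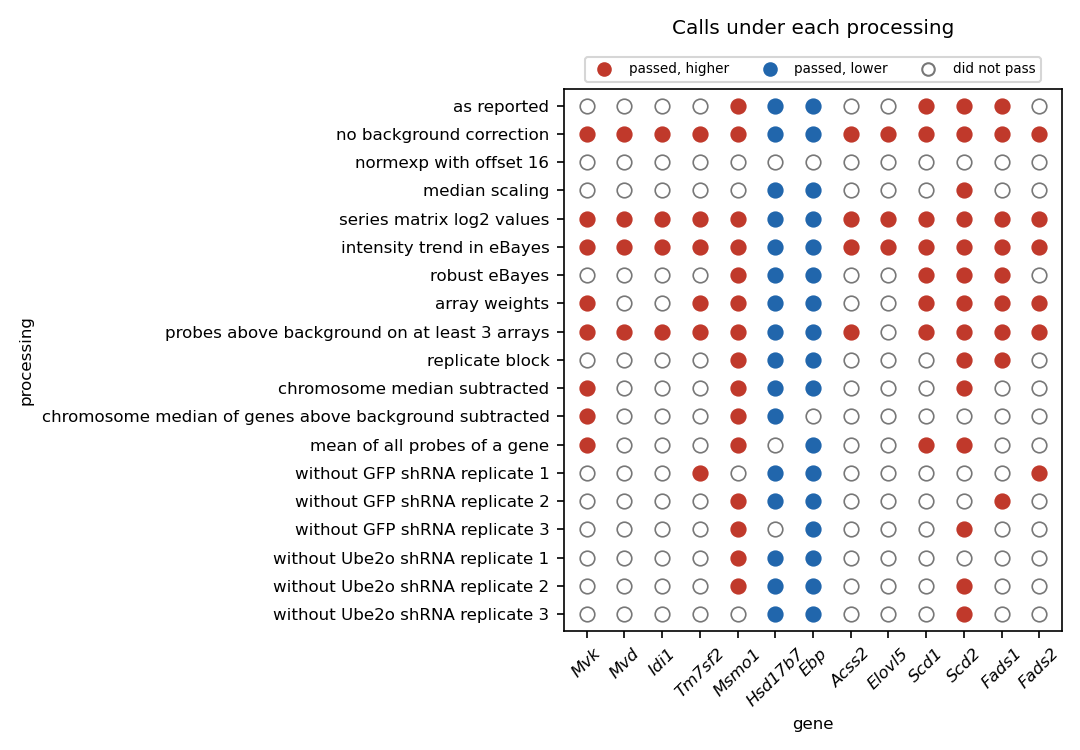
Calls of the 13 genes (x axis) that passed in at least 1 processing (y axis), filled red where higher with Ube2o shRNA, filled blue where lower and open where not past the threshold. The row with 16 as offset is empty, 3 rows hold 11 rises, and Ebp is filled in all 6 rows that leave out an array.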

How the data were processed

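Column-purified RNA was amplified to biotin-labelled cRNA for the arrays, per the labels' protocols. The authors deposited linear probe intensity, with no values below 106, and a series matrix of log2 values, found here to be quantile normalized (sorted values equal within 0.001, median 7.386 on each array). The scanner software and the steps behind the log2 values were not given in the sources at hand. Neither table holds detection p-values. Arrays were grouped by their titles, 3 to each group. A characteristic of the Ube2o arrays says siRNA, but their titles say shRNA, which was followed.

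Intensity was corrected with normexp (saddle point, offset 50), quantile normalized and taken to log2, and tested two-sided by lmFit and eBayes of limma 3.58.1 (R 4.3.3), the Benjamini-Hochberg adjustment taking in all 45281 probes. A probe was above background where p was under 0.05 in a normal distribution set by the mode of the array's log2 signal and the spread below it. Of the probes 35784 had 1 symbol, updated through RefSeq of GRCm38.p6, and the brightest probe stood for a gene. The fit was run on simulated arrays with known changes and a common spread for all probes, which does not measure its power on these arrays. Same-numbered arrays did not deviate together (correlations of 0.035, -0.11 and 0.086), so the replicate number is not a pairing.

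The genes, lists, named genes and motifs were chosen with earlier results of these data known. All genes of the pathway were named, and of related lists those that passed, up to 4 each. Further probes, neighbours and genes that did not pass were named after their values were seen. Alternatives covered background correction, scaling, the deposited log2 values, moderation, array weights, a filter on dim probes, the replicate block, averaging of probes, chromosome medians and leaving out each array.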

Additional observations from a re-analysis of the deposited data

How the results depend on the processing

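Of the 4 rises and 2 falls reported (median change 0.072 over 35 genes), the numbers of rises and falls were 11 and 2 without background correction, with the deposited log2 values and with an intensity trend, 10 and 2 with only probes above background on at least 3 arrays, 7 and 2 with array weights, 0 and 0 with the offset of 16, and 1 and 2 with median scaling, where the median was -0.032. They were 4 and 1 with the mean of all probes, and 2 and 1 with the chromosome median of genes above background subtracted, a setting chosen after seeing the data. With the replicate number as a block 3 rose, Scd1 no longer passed, and 2 fell. Leaving out an array gave 1 to 2 rises and 1 to 2 falls, with medians from 0.064 to 0.085. Fewer arrays also lowered the calls among all probes, from 2246 to between 1447 and 1686. All 45281 probes gave 1026 rises and 1220 falls, 567 and 1544 with median scaling and 179 and 405 with the offset of 16. The numbers were 2025 and 1944 without background correction, 2011 and 1930 with the deposited log2 values and 1660 and 1693 with the trend. With the filter they were 1735 and 1785, of 19895 probes. The cause of these shifts was not tested. The 14 and 3 genes whose groups did not overlap (21.3% and 20.1% of all genes above background) became 9 and 2 with that same chromosome median (18.6% and 20.3%), 12 and 2 with the median over all genes of a chromosome (20.3% and 19.7%), 10 and 4 with median scaling (10.4% and 22.1%), and 14 to 15 and 3 to 8 without 1 array (24.9% to 27.6% and 23.2% to 26.3%, with 8 lower without GFP shRNA replicate 1 and 5 without Ube2o shRNA replicate 3), where fewer values make a lack of overlap easier.

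Each of the 21 reversals concerned a gene that did not pass. With median scaling the changes were -0.032 for Insig1, -0.087 for Insig2, -0.0093 for Pmvk, -0.037 for Fdps, -0.045 for Sqle and -0.045 for Dhcr7. With array weights Sqle was at -0.013. With the chromosome median of genes above background subtracted, Srebf2 was at 0.018, Insig2 at -0.027 and Nsdhl at 0.046. With probes averaged Srebf2 was at 0.15, Insig2 at -0.076 and Elovl6 at 0.073. With 1 array left out, changes ran from -0.038 to 0.1735 for Insig1, from -0.0829 to 0.0839 for Insig2, from -0.0065 to 0.1328 for Pmvk, from -0.0965 to 0.109 for Sqle, from -7e-04 to 0.0815 for Dhcr7 and from -0.1713 to 0.0345 for Gpam.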
